A study of Mus musculus with 12 samples.

Results

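The genes described here encode 9 enzymes of arginine, nitric oxide and polyamine metabolism: Arg1, Arg2, Nos2, Ass1, Odc1, Srm, Sms, Sat1 and Oat. They were chosen by name from textbook pathways, with earlier results of these data known, and matched through the RefSeq accessions of the array's probes. All 9 genes were on the array, with 12 of its 41174 probes, and all 9 passed the filter on dim probes among 23739 genes tested. The samples were scraped colon mucosa from 12 mice, 1 colon and 1 single-colour array per mouse. Each recipient was a wild-type C57BL/6 mouse, given marrow of C57BL/6 donors that were either Muc1 knockout (KO marrow) or wild type (WT marrow). Muc1 encodes a membrane-bound mucin, and only cells of marrow origin lacked it in the mice with KO marrow, while the host's other cells, the epithelium among them, kept the gene. The 4 groups of 3 mice each were KO_AOMDSS (KO marrow, treated), WT_AOMDSS (WT marrow, treated), KO_untreated and WT_untreated. Treated mice had azoxymethane (AOM), a colon carcinogen, at 12.5 mg/kg, and 5 days later dextran sodium sulfate (DSS), which injures the colon lining, at 2% in drinking water for 4 days and then plain water for 14 days. That cycle was given again, a last course of 2.5% DSS ran for 5 days, and the mice were killed 1 day after it. Ages and sexes of the mice were not given in the sources used here.

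Arginine is a branch point. Nitric oxide synthases turn it into nitric oxide and citrulline, and Ass1 and argininosuccinate lyase rebuild arginine from that citrulline. Arginases split it into urea and ornithine, which Oat sends toward proline and glutamate, and Odc1 decarboxylates to putrescine, the first of the polyamines that growing cells need. Inducible nitric oxide synthase (Nos2) and arginase 1 (Arg1) are best known from activated macrophages and from myeloid cells that suppress T cells by using up arginine, while colon epithelium also makes Nos2 when inflamed.

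The arrays were of unequal quality. The 75th percentile of the spot signal was 153.2 units on WT_AOMDSS 3, the dimmest array, and 332 to 767.8 units on the other 11. Between 58.0% and 78.3% of probes were well above background, and arrays of one group correlated with each other at r = 0.888 to 0.987 over genes. Each of 3 slides carried 4 arrays. On slide 1 were WT_untreated 1 to 3 and KO_untreated 1, on slide 2 were KO_AOMDSS 3, WT_AOMDSS 3 and KO_untreated 2 and 3, and on slide 3 were KO_AOMDSS 1 and 2 with WT_AOMDSS 1 and 2. No slide held both WT_AOMDSS and WT_untreated mice, so treatment and slide could be separated with WT marrow only in a fit that borrowed the other groups. Slide 3 was scanned on the earlier of the days on which scans were made, and its arrays held 491 to 767 spots of uneven brightness each, while those of the other slides held 4 to 51. Levels below are log2 signals minus the array's own 75th percentile, so a level of 0 equals that percentile, and a difference of 1 is 2-fold. Levels of different genes are not set against each other, since each probe has its own brightness. A gene was called where limma's p, adjusted by Benjamini-Hochberg over all 23739 genes, was under 0.05.

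Of the 9 enzymes, 2 rose with AOM+DSS in mice with KO marrow (Arg1 and Nos2), 1 rose in mice with WT marrow (Arg1), and none fell. Over all genes the called share was 3.16% with KO marrow (1.85% higher and 1.31% lower) and 13.8% with WT marrow (3.60% higher and 10.2% lower). Of the called genes 58.6% were higher with KO marrow and 26.1% with WT marrow, which became 69.2% and 47.4% after quantile normalization. With slide as a fixed block the shares were 64.2% with KO marrow and 87.4% with WT marrow (median changes of all genes 0.44 and 0.47), and with slide as a random block 63.5% and 68.9%, so the main direction of the calls with WT marrow turned with the slide term. The median change of the 9 was 0.52 with KO marrow and 0.76 with WT marrow, against -0.11 and -0.24 for all genes. Quantile normalization brought those medians of all genes to 0 with KO marrow and 0.04 with WT marrow, and normexp background correction to 0.23 and 0.39. Treated and untreated mice did not overlap in 5 of the 9 genes with KO marrow (Arg1, Arg2, Nos2, Sat1 and Oat) and in 3 with WT marrow (Arg1, Ass1 and Srm), where 23.1% and 32.7% of all genes did not overlap. KO and WT marrow did not overlap in 1 enzyme in treated mice (Sms, with 1 KO_AOMDSS value) and in 1 in untreated mice (Nos2), where 2.62% and 12.7% of all genes did not. No enzyme was called between marrows or in the difference between the marrows' treatment effects, where no gene of the 23739 was called by limma. At an unadjusted p under 0.05 the counts over all genes were 231 for KO against WT marrow in treated mice, 2911 in untreated mice and 829 for the difference between effects, and 0, 3 and 0 of the 9 enzymes were among them.

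**Figure D1:**
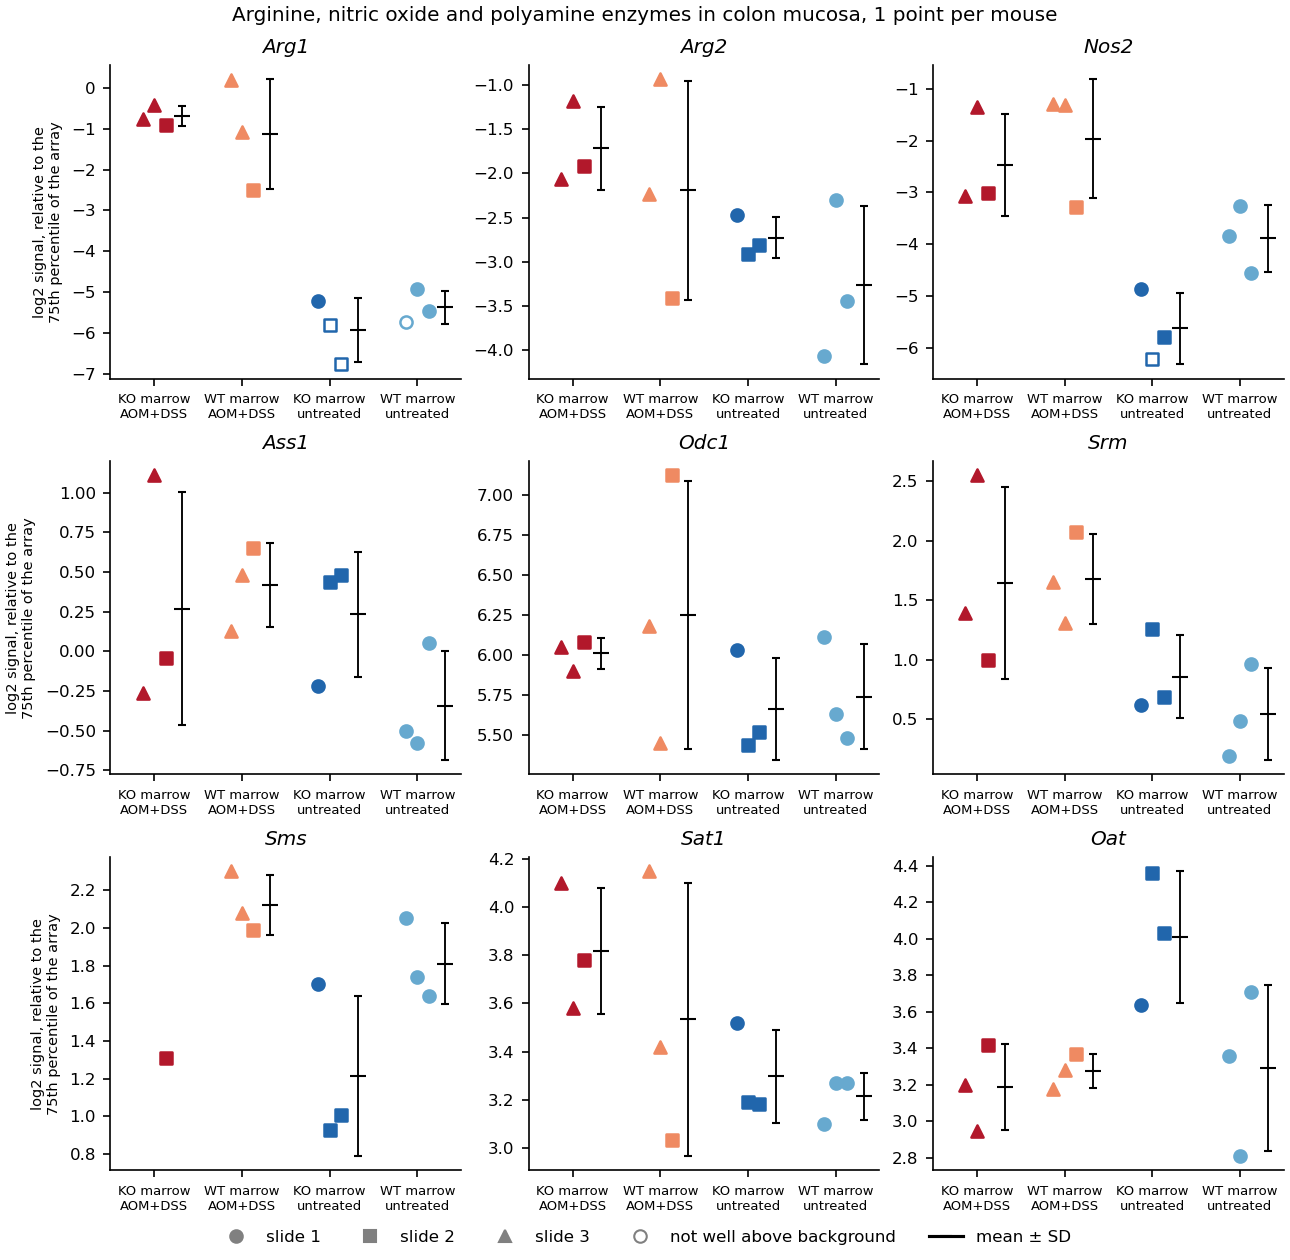
Level of each enzyme in each mouse (log2 signal, with the 75th percentile of its array at 0), with treated groups left of untreated ones and KO marrow left of WT marrow, symbols by slide, open symbols for spots not well above background, and bars for mean ± SD of 3 mice. All 6 treated mice were above all 6 untreated mice for Arg1, while the other enzymes overlapped between some groups, and Sms had a value on 1 KO_AOMDSS array.

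Arg1, which encodes the cytosolic arginase, had the largest change of the set with either marrow. Its level (probe A_51_P303160) was -0.77, -0.43 and -0.90 in KO_AOMDSS 1 to 3, and 0.18, -1.09 and -2.50 in WT_AOMDSS 1 to 3. In untreated mice it was -5.21, -5.81 and -6.77 with KO marrow and -5.74, -4.93 and -5.46 with WT marrow. Every treated mouse was thus higher than every untreated mouse, and the treated mice with WT marrow spread more widely (SD 1.34) than those with KO marrow (SD 0.24), with WT_AOMDSS 3 lowest.

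Arg1 rose by 5.23 ± 0.63 (SE, n = 3 mice each) with KO marrow, 37.5-fold (adjusted p = 0.000824 in limma), and by 4.24 ± 0.63 with WT marrow, 18.9-fold (adjusted p = 0.00384). The untreated levels lay near the detection limit: the probe was well above background on 1 of 3 KO_untreated and 2 of 3 WT_untreated arrays, and on all 6 treated arrays. Arg1 thus passed the filter on dim probes only through the treated groups, where it was high. Without that filter it was still called with KO marrow (5.23, adjusted p = 0.000586 in limma) and with WT marrow. With normexp background correction, which compresses dim signals, the changes were 2.36 with KO marrow and 2.43 with WT marrow, both still called. Within slide 2 the KO_AOMDSS mouse stood 5.39 above the KO_untreated mice (1 mouse against 2), and slide as a fixed block gave 4.81 with KO marrow (adjusted p = 0.00269). With WT marrow the same block gave 4.53, which was no longer called (adjusted p = 0.069), and without WT_AOMDSS 3 the change was 4.92 (adjusted p = 0.000523).

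Between marrows Arg1 did not pass. It averaged -0.70 ± 0.24 in KO_AOMDSS and -1.14 ± 1.34 in WT_AOMDSS mice (SD, n = 3 each), a difference of 0.44 (95% interval -0.93 to 1.80, adjusted p = 1 in limma). Within slide 3 the difference was -0.14, and within slide 2 it was 1.60 on 1 mouse each (adjusted p = 0.0705). In untreated mice the averages were -5.93 ± 0.79 with KO marrow and -5.38 ± 0.41 with WT marrow, a difference of -0.55 (-1.92 to 0.81). The treatment effect was 0.99 larger with KO than with WT marrow, with an interval from -0.94 to 2.92, which holds 0, and the difference was 0.19 after quantile normalization.

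Nos2, the inducible nitric oxide synthase, was the other enzyme that rose with treatment in mice with KO marrow. Its level (probe A_51_P163942) was -3.07, -1.34 and -3.02 in KO_AOMDSS 1 to 3, against -4.87, -6.23 and -5.79 in KO_untreated 1 to 3. With WT marrow it was -1.29, -1.31 and -3.28 in treated mice, against -3.85, -3.27 and -4.55 in untreated mice. The groups with KO marrow did not overlap. With WT marrow they overlapped by 1 pair, since WT_AOMDSS 3 at -3.28 fell just under WT_untreated 2 at -3.27.

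The rise of Nos2 with KO marrow was 3.15 ± 0.68, 8.89-fold (adjusted p = 0.0236 in limma), and with WT marrow the change was 1.93 ± 0.68, 3.81-fold (adjusted p = 0.0714), which did not pass. Whether Nos2 was called turned on single arrays with either marrow. The call with KO marrow was lost without KO_AOMDSS 1 (3.45, adjusted p = 0.0511), KO_AOMDSS 2 (2.58, 0.11), KO_untreated 2 (2.85, 0.114) or KO_untreated 3 (3.07, 0.107), and under normexp (1.43, 0.189). It held within slide 2 (2.99) and with slide as a fixed block (2.60, adjusted p = 0.0425). The change with WT marrow was called without WT_AOMDSS 3 (2.59, adjusted p = 0.00904) and after quantile normalization (2.52, 0.0277). The difference between the marrows' treatment effects was 1.22 (95% interval -0.86 to 3.30, adjusted p = 0.897), so the data did not separate the effects.

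In untreated mice the Nos2 levels of the marrows did not overlap, as for 12.7% of all genes, and the difference did not pass. Nos2 averaged -5.63 ± 0.69 in KO_untreated and -3.89 ± 0.64 in WT_untreated mice (SD, n = 3 each), a difference of -1.74 ± 0.68 (adjusted p = 0.404 in limma, unadjusted 0.0239). Within slide 1, on 1 KO_untreated mouse against 3 WT_untreated mice, it was -0.98, and under normexp -0.61. In treated mice the averages were -2.48 ± 0.98 with KO marrow and -1.96 ± 1.14 with WT marrow, a difference of -0.52 (-1.99 to 0.95).

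The Nos2 probe was printed as 10 spots on each array, so its technical spread could be read within an array. The spots ran from 51.4 to 61.5 units on KO_AOMDSS 1 and from 288 to 341 units on WT_AOMDSS 2, but from 11.0 to 79.4 units on WT_untreated 1 and from 8.73 to 58.3 units on WT_untreated 3. On the log2 scale the SD between spots was 0.62 to 1.19 on the 4 arrays of slide 1, 0.06 to 0.52 on slide 2 and 0.06 to 0.13 on slide 3. Spots of one probe thus disagreed most on the slide that held all WT_untreated mice. Other probes with 10 spots (245 on the array, of which 87 to 119 per array had a geometric mean signal of 8 to 256 units) had a median SD of 0.26 to 0.42 on slide 1, 0.11 to 0.18 on slide 2 and 0.12 to 0.15 on slide 3. With the median in place of the mean of the spots, chosen after seeing the data, Nos2 changed by 3.12 with KO marrow (adjusted p = 0.0222) and by 1.62 with WT marrow (adjusted p = 0.11).

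**Figure D2:**
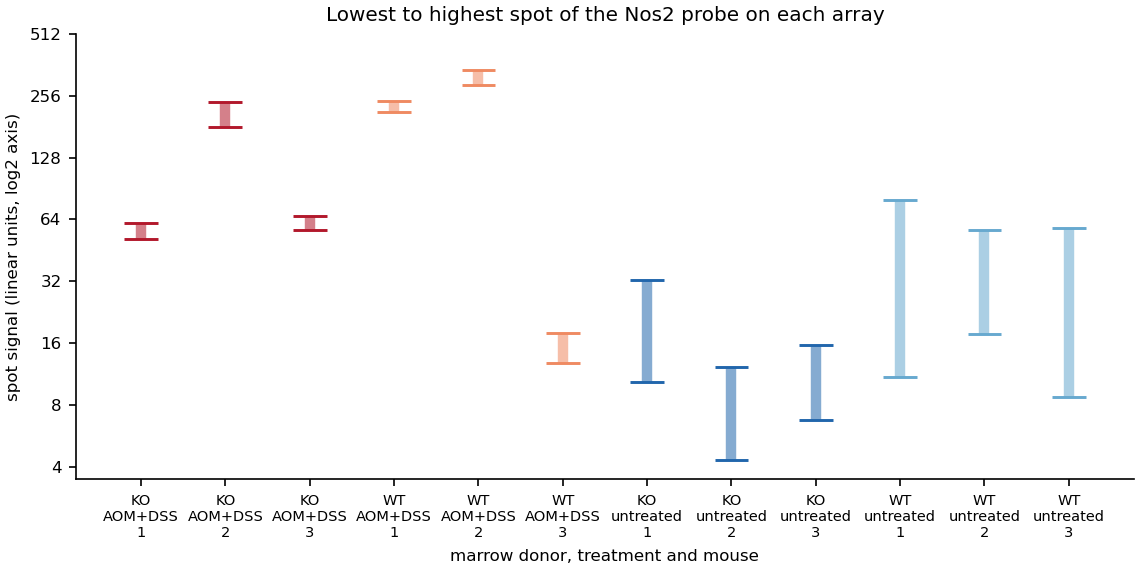
Range of the up to 10 spots of the Nos2 probe on each array, from the lowest to the highest processed signal (linear units on a log2 axis), with treated mice left of untreated mice and KO marrow left of WT marrow in each. The spots ran from 288 to 341 units on WT_AOMDSS 2 and from 11.0 to 79.4 units on WT_untreated 1.

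Arg2, the mitochondrial arginase, did not pass in any of the 5 comparisons. Its level was -2.06, -1.18 and -1.92 in KO_AOMDSS 1 to 3, against -2.47, -2.91 and -2.81 in KO_untreated 1 to 3. In WT_AOMDSS 1 to 3 it was -2.23, -0.94 and -3.41, against -4.06, -2.30 and -3.44 in WT_untreated 1 to 3. The groups with KO marrow did not overlap, and those with WT marrow did. The changes were 1.01 ± 0.60 with KO marrow (adjusted p = 0.505 in limma) and 1.08 ± 0.60 with WT marrow (adjusted p = 0.232). The change with WT marrow moved with single mice: it was 0.45 without WT_AOMDSS 2 (adjusted p = 0.631), 0.68 without WT_untreated 1 (adjusted p = 0.545), and 1.69 without WT_AOMDSS 3, where it was called (adjusted p = 0.0325). With KO marrow it was 0.93 within slide 2 (1 mouse against 2, adjusted p = 0.0441) and 0.43 with slide as a fixed block (adjusted p = 0.69). In both groups with WT marrow Arg2 was highest in mouse 2, and the mean level of 8 smooth muscle markers was highest there too, at 3.14 in WT_AOMDSS 2 (-2.06 and -2.47 in the other 2 mice) and 0.87 in WT_untreated 2 (-1.13 and -1.27 in the other 2). The mean of 10 monocyte and macrophage markers was highest in those mice as well. It was 0.41 in WT_AOMDSS 2 (-0.08 and -0.75 in WT_AOMDSS 1 and 3) and -0.52 in WT_untreated 2 (-1.75 and -1.37 in WT_untreated 1 and 3). With KO marrow Arg2 was highest in KO_AOMDSS 2 and KO_untreated 1. The smooth muscle mean was highest there too, at -1.69 (-1.89 and -1.81 in KO_AOMDSS 1 and 3) and -0.94 (-2.02 and -1.74 in KO_untreated 2 and 3). The macrophage mean was lowest of its group in KO_AOMDSS 2 (0.15, against 0.16 and 0.40). In KO_untreated 1 it was highest (-1.23, against -1.61 and -2.05). The part of muscle or of macrophages in the Arg2 values was not tested.

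Ass1, which joins citrulline to aspartate on the way back to arginine, ranged from -0.26 to 1.11 in KO_AOMDSS mice and from -0.22 to 0.48 in KO_untreated mice, and changed by 0.04 ± 0.37 (adjusted p = 0.977 in limma). With WT marrow it ranged from 0.13 to 0.65 in treated and from -0.58 to 0.05 in untreated mice, so that the groups did not overlap. That change was 0.76 ± 0.37 and did not pass (adjusted p = 0.17). Its treatment effects differed by -0.72 between KO and WT marrow (95% interval -1.85 to 0.41).

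Oat, the ornithine aminotransferase that leads ornithine toward proline and glutamate, was the 1 member whose change with KO marrow was negative. It was 3.20, 2.95 and 3.42 in KO_AOMDSS 1 to 3, against 3.64, 4.36 and 4.03 in KO_untreated 1 to 3. With WT marrow it was 3.18, 3.28 and 3.37 in treated mice, against 3.36, 2.81 and 3.71 in untreated mice. The KO_AOMDSS mice lay below all KO_untreated mice, whereas the groups with WT marrow overlapped. The changes were -0.82 ± 0.27 with KO marrow (adjusted p = 0.138 in limma, unadjusted 0.0086) and -0.02 ± 0.27 with WT marrow (adjusted p = 0.965). Neither passed, and the difference between them was -0.80 (95% interval -1.61 to 0.01, adjusted p = 0.897). Within slide 2 the change with KO marrow was -0.77 (adjusted p = 0.0458). Oat was also higher on average in KO_untreated than in WT_untreated mice, by 0.71 ± 0.27 (adjusted p = 0.404), and by 0.34 within slide 1.

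Odc1, ornithine decarboxylase, is the first and rate-limiting enzyme of polyamine synthesis. It was 6.05, 5.90 and 6.08 in KO_AOMDSS 1 to 3, against 6.03, 5.44 and 5.52 in KO_untreated 1 to 3. In WT_AOMDSS 1 to 3 it was 6.18, 5.45 and 7.12, against 6.11, 5.63 and 5.48 in WT_untreated 1 to 3. Groups overlapped with both marrows, and the changes of 0.34 ± 0.35 with KO marrow (adjusted p = 0.731 in limma) and 0.51 ± 0.35 with WT marrow (adjusted p = 0.33) did not pass. A second, dimmer Odc1 probe differed in means by 0.44 with KO marrow and 0.91 with WT marrow, and did not show the high value of WT_AOMDSS 3, at 0.75 there against 2.09 and 1.31 in WT_AOMDSS 1 and 2.

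Srm, spermidine synthase, adds the aminopropyl group that turns putrescine into spermidine. It was 1.39, 2.55 and 1.00 in KO_AOMDSS 1 to 3, against 0.62, 1.26 and 0.69 in KO_untreated 1 to 3, and 1.65, 1.31 and 2.07 in WT_AOMDSS 1 to 3, against 0.19, 0.48 and 0.96 in WT_untreated 1 to 3. The groups with KO marrow overlapped in 1 pair of mice, and those with WT marrow did not overlap. The change was 0.79 ± 0.38 with KO marrow (adjusted p = 0.374 in limma) and 1.13 ± 0.38 with WT marrow (adjusted p = 0.0641), so neither passed. With KO marrow the change was 0.34 without KO_AOMDSS 2 (adjusted p = 0.769) and 0.03 within slide 2 (adjusted p = 0.953). The change with WT marrow was called without KO_AOMDSS 2 (1.13, adjusted p = 0.0396). It was smaller with slide as a fixed block (0.64, adjusted p = 0.663).

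Sms, spermine synthase, could be read on 10 arrays, because the spot of its brighter probe was marked as an outlier by the scanner software on KO_AOMDSS 1 and 2. The value in KO_AOMDSS 3 was 1.31, and KO_untreated mice ranged from 0.93 to 1.70. With WT marrow the levels were 1.99 to 2.30 in treated and 1.64 to 2.05 in untreated mice. The changes were 0.10 ± 0.38 with KO marrow, resting on that 1 treated mouse, and 0.31 ± 0.27 with WT marrow (adjusted p = 0.942 and 0.439 in limma). A second, dimmer Sms probe, read on all arrays, gave -0.62 with KO marrow and 0.23 with WT marrow, so the probes disagreed in sign with KO marrow.

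Sat1, the acetyltransferase that starts the breakdown of spermidine and spermine, was 4.10, 3.58 and 3.78 in KO_AOMDSS 1 to 3, against 3.52, 3.19 and 3.18 in KO_untreated 1 to 3. In WT_AOMDSS 1 to 3 it was 4.15, 3.42 and 3.03, against 3.10, 3.27 and 3.27 in WT_untreated 1 to 3. The groups with KO marrow did not overlap, and WT_AOMDSS 3 lay below every WT_untreated mouse. The changes were 0.52 ± 0.27 with KO marrow (adjusted p = 0.423 in limma) and 0.32 ± 0.27 with WT marrow (adjusted p = 0.44), and neither passed. Its second probe gave similar differences of 0.58 with KO marrow and 0.33 with WT marrow.

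**Figure D3:**
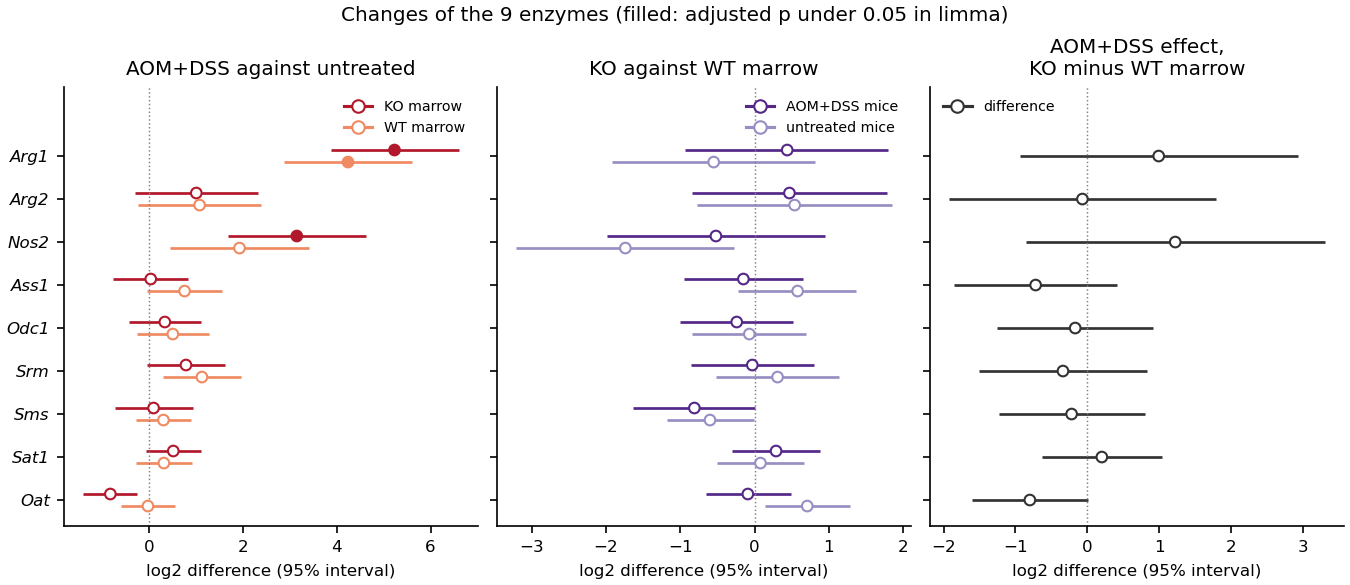
Log2 difference of each enzyme with its 95% interval from limma: AOM+DSS against untreated mice by marrow (left), KO against WT marrow by treatment (middle) and the treatment effect with KO minus that with WT marrow (right), filled where the adjusted p was under 0.05. Filled points are Arg1 with both marrows (5.23 and 4.24) and Nos2 with KO marrow (3.15), and no point is filled in the middle and right panels.

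The surrounding pathways were described by 8 lists of 59 genes, of which 51 were tested. With KO marrow 9 rose and 2 fell (median change 0.04), and with WT marrow 10 rose and 4 fell (median 0.10), beside the called shares of 3.16% and 13.8% over all genes. None was called between marrows in treated or untreated mice, or in the difference between treatment effects.

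Genes that bring arginine in or recycle it moved in both directions. Of 4 arginine transport genes tested, 1 rose with each marrow: Slc7a7, a subunit of a carrier of cationic amino acids, by 1.11 ± 0.21 with KO marrow (adjusted p = 0.0128 in limma) and 1.14 ± 0.21 with WT marrow (adjusted p = 0.00961). Slc7a1, a general arginine carrier, changed by -0.48 with KO marrow and -2.00 with WT marrow without passing (adjusted p = 0.833 and 0.0828). Of 6 urea cycle and creatine genes, none rose. Otc, which makes citrulline from ornithine, changed by -2.80 with KO marrow (adjusted p = 0.00371) and by -3.61 with WT marrow (adjusted p = 0.00161), a fall in both. It averaged -2.39 in KO_AOMDSS and 0.41 in KO_untreated mice, and -2.78 in WT_AOMDSS and 0.84 in WT_untreated mice. Agmat, agmatinase, fell by 1.60 with WT marrow (adjusted p = 0.0397) but was 0.36 higher with slide as a fixed block (adjusted p = 0.781). Of 5 genes between ornithine, proline and glutamate none was called, and the largest changes were those of Aldh4a1 with KO marrow (-1.06, adjusted p = 0.0752) and Prodh with WT marrow (0.52, adjusted p = 0.273).

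Among 12 genes of polyamine synthesis, breakdown and control, 1 rose and 1 fell with KO marrow, and 2 rose and 2 fell with WT marrow. Smox, spermine oxidase, rose by 1.37 ± 0.28 with KO marrow (adjusted p = 0.0189 in limma) and 1.60 ± 0.28 with WT marrow (adjusted p = 0.00753), and stayed called in all 24 alternatives with WT marrow and in 20 of 25 with KO marrow. Myc, a growth regulator known to drive Odc1, rose by 1.95 ± 0.32 with WT marrow (adjusted p = 0.00549), and its change with KO marrow was 0.96 (adjusted p = 0.148). Oaz3, an antizyme known from testis, fell by 2.67 with KO marrow and 2.20 with WT marrow from dim levels, and was 0.32 higher with WT marrow under normexp (adjusted p = 0.726). Azin1, which frees Odc1 from its antizymes, fell by 0.87 with WT marrow (adjusted p = 0.0267).

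Of 9 genes of nitric oxide synthesis and its inhibitors, 1 rose with KO marrow and 2 with WT marrow. Ddah1, which degrades the synthase inhibitor dimethylarginine, rose by 1.65 ± 0.29 with KO marrow (adjusted p = 0.00788 in limma) and 1.21 ± 0.29 with WT marrow (adjusted p = 0.0232). Gch1, the first enzyme of tetrahydrobiopterin synthesis, a cofactor of all nitric oxide synthases, rose by 1.55 ± 0.40 with WT marrow (adjusted p = 0.028), and its change with KO marrow was 0.96 (adjusted p = 0.275). Nos1, the neuronal synthase, did not pass (-0.17 and -1.12), and Nos3 was not well above background on all 3 arrays of any group. Neither subunit of the nitric oxide receptor tested, Gucy1a1 and Gucy1b1, was called with either marrow (median of the list -0.32 with KO marrow and -1.48 with WT marrow).

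Of 4 known inducers of Nos2, 3 rose with each marrow (median change of the list 3.26 with KO marrow and 2.63 with WT marrow). Il1b rose by 7.26 ± 0.65 with KO marrow (adjusted p = 0.000141 in limma), Tnf by 2.77 ± 0.45 with KO and 1.76 ± 0.45 with WT marrow (adjusted p = 0.00491 and 0.0283), and Ifng, interferon gamma, by 3.76 ± 0.90 with KO marrow (adjusted p = 0.0395). Ifng was dim in untreated mice, at a mean of -6.42 with KO marrow and -4.90 with WT marrow. It passed the filter only through the treated groups, so its rise and its part in the list median were partly set by the filter. Of 9 inducers and partners of Arg1, 3 rose with KO marrow and 2 with WT marrow. Il4ra, a receptor chain for interleukins 4 and 13, rose by 2.48 ± 0.31 with KO and 2.01 ± 0.34 with WT marrow (adjusted p = 0.00145 and 0.0077), and Cebpb, a transcription factor that acts on the Arg1 gene, by 1.44 ± 0.28 and 1.95 ± 0.28 (adjusted p = 0.0149 and 0.00372). Chil3, a chitinase-like gene that marks the same macrophage state as Arg1, rose by 3.97 ± 0.80 with KO marrow (adjusted p = 0.0173), while its change with WT marrow was 0.78 (adjusted p = 0.526). Retnla, another gene of that state, had changes of the other sign that did not pass (-1.55 with KO marrow and -2.90 with WT marrow, adjusted p = 0.584 and 0.0834), and the cytokine genes Il4 and Il13 were not called with either marrow.

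How firm these pathway calls were differed by marrow. With slide as a fixed block 10 of the 11 calls with KO marrow remained, all but Ifng, and 2 of the 14 with WT marrow, Il1b and Smox. Over the 12 fits that each left out 1 mouse, Ddah1, Il1b, Il4ra, Otc and Tnf stayed called with KO marrow, and Cebpb, Il1b, Il4ra, Myc, Otc, Slc7a7 and Smox with WT marrow. The other 6 calls with KO marrow and 7 with WT marrow were lost in at least 1 of those fits. The fewest remained without KO_untreated 3 (5 of 11) with KO marrow and without WT_AOMDSS 1 (7 of 14) with WT marrow.

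**Figure D4:**
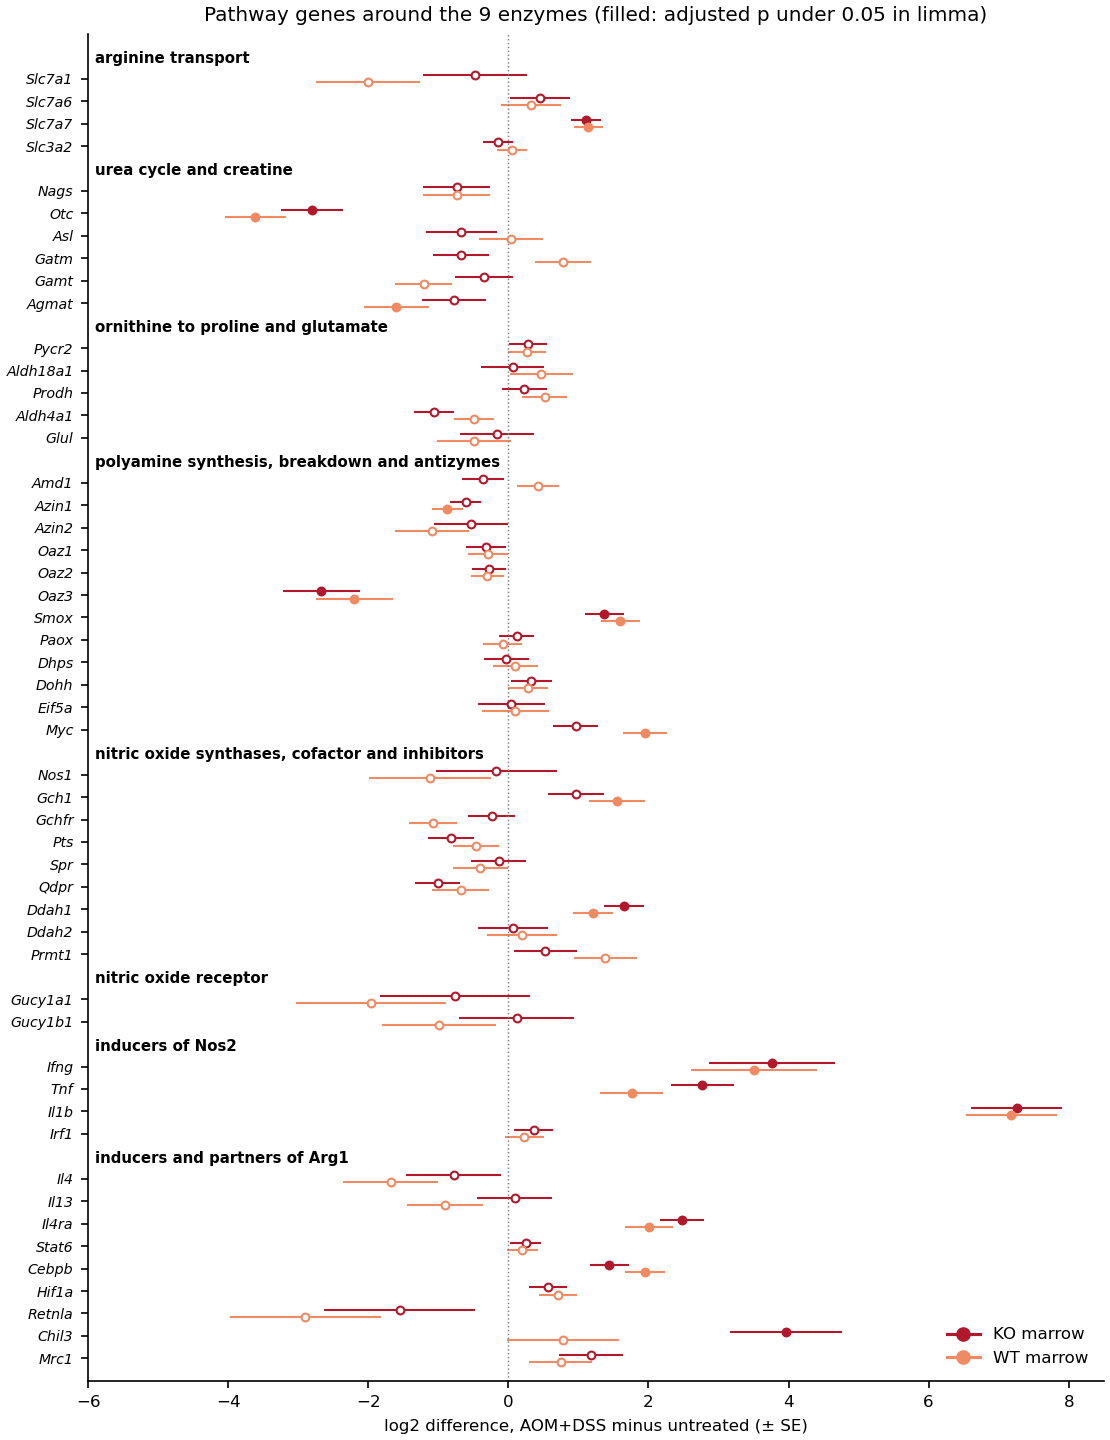
Log2 change with AOM+DSS (± SE) of the pathway genes tested, by list, with KO marrow in dark red and WT marrow in orange, filled where limma's adjusted p was under 0.05. Il1b lies farthest to the right, Otc lies to the left with both marrows (-2.80 and -3.61), and the lists of proline genes and of the nitric oxide receptor hold no filled point.

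Beside Arg1 and Nos2, the mean of the neutrophil markers was higher in every treated than in every untreated mouse, whereas that of the macrophage markers overlapped between treated and untreated mice with WT marrow. The mean level of 8 neutrophil markers was -2.06 to 0.19 in KO_AOMDSS and -1.21 to 0.36 in WT_AOMDSS mice, against -6.05 to -5.50 in KO_untreated and -5.99 to -4.51 in WT_untreated mice, and 6 of the 8 rose with each marrow. Of that list Ngp, Camp and Elane were not well above background on all 3 arrays of any group. Per array, 3 to 4 of the 8 were well above background in KO_untreated and 3 in WT_untreated mice. In treated mice it was 7 to 8. The markers dim in untreated mice passed the filter only through the treated groups. Their rise and the gap between the means were therefore partly set by the filter. The mean of 10 monocyte and macrophage markers was 0.15 to 0.40 in KO_AOMDSS and -0.75 to 0.41 in WT_AOMDSS mice. In untreated mice it was -2.05 to -1.23 with KO marrow and -1.75 to -0.52 with WT marrow, and 5 of the 10 rose with each marrow. Of these, Ccr2, called with KO marrow, and Msr1, called with WT marrow, also passed the filter only through the treated groups. Their rise and their part in the means were therefore partly set by the filter. In a bulk sample, more cells of a type and more RNA per cell cannot be told apart, and the part of cell numbers in the Arg1 and Nos2 results was not tested. Within the WT_AOMDSS mice the lists split: mouse 3 had the highest neutrophil mean (0.36) and the lowest macrophage mean (-0.75). It also had the lowest Arg1 (-2.50), Nos2 (-3.28) and Arg2 (-3.41). Its array was the dimmest of the series and the only WT_AOMDSS array on slide 2. KO_AOMDSS 3, also on slide 2, had the highest neutrophil mean (0.19) and macrophage mean (0.40) of its group. Mouse, slide and dimness cannot be told apart here. Colon epithelium markers, 11 genes, were all well above background on every array. Their means were 5.25 to 6.41 in KO_AOMDSS and 5.25 to 6.47 in WT_AOMDSS mice. In KO_untreated mice they were 6.23 to 6.45 and in WT_untreated mice 6.18 to 6.60, and 1 of the 11 fell with each marrow. The low treated means, 5.25 to 5.60, were all on slide 3, which held treated mice only. The treated mice on slide 2 had 6.41 (KO_AOMDSS 3) and 6.47 (WT_AOMDSS 3). The part of the slide was not tested. Of 8 T and B cell markers 1 rose with each marrow, Jchain (median change of the list 0.15 with KO marrow and -0.78 with WT marrow). Of 8 smooth muscle markers none was called. Over all genes 1.85% were called higher and 1.31% lower with KO marrow, and 3.60% higher and 10.2% lower with WT marrow. The 1 of 11 epithelium markers that fell with WT marrow was near that last share.

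**Figure D5:**
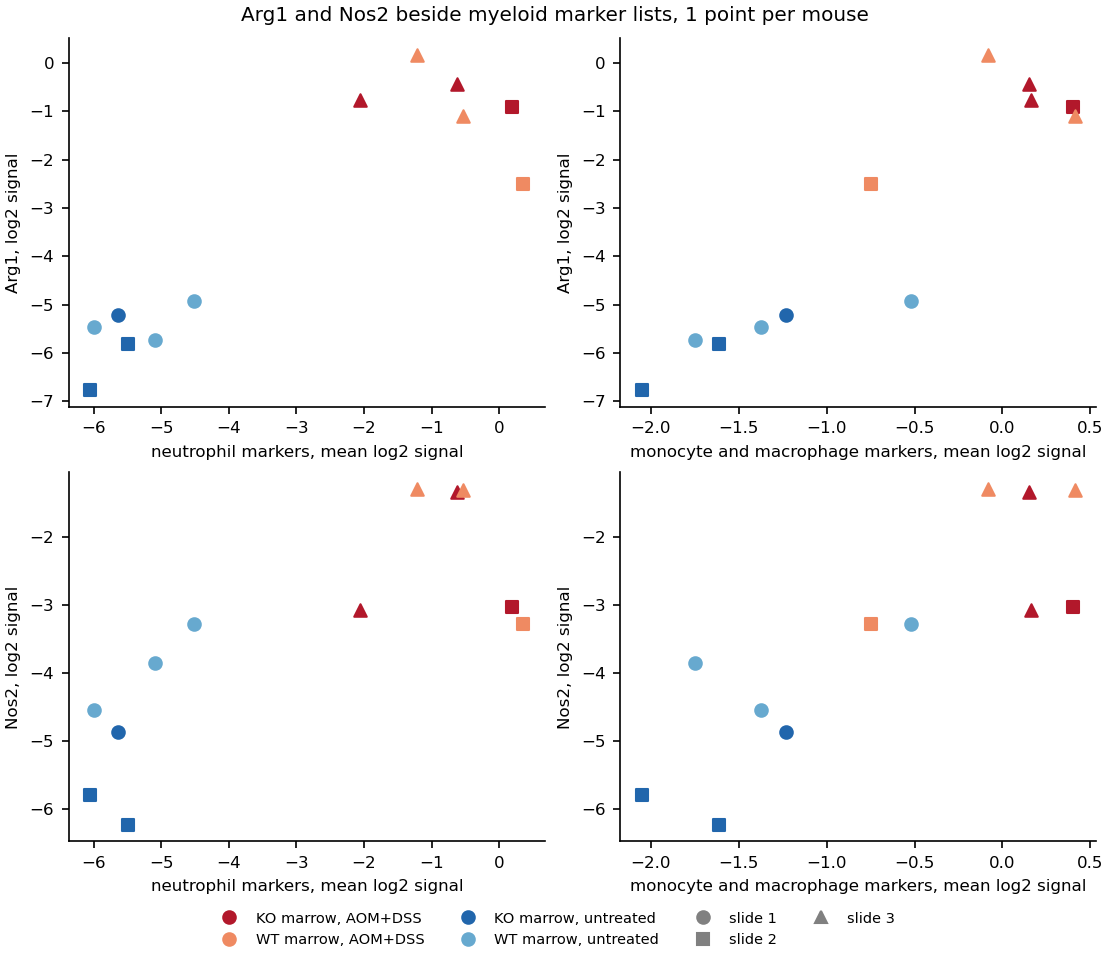
Level of Arg1 (top) and Nos2 (bottom) in each mouse against the mean log2 level of 8 neutrophil markers (left) and of 10 monocyte and macrophage markers (right), coloured by group and shaped by slide. Treated and untreated mice form separate clouds for Arg1, which passed the filter on dim probes only through the treated groups. WT_AOMDSS 3, the dimmest array and the only WT_AOMDSS array on slide 2, joins the highest neutrophil mean (0.36) with the lowest treated Arg1 level (-2.50).

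As a description over mice, which share slides and the same treatment groups, Arg1 and Nos2 had the highest correlation of the 9 enzymes before group means were taken off (r = 0.87 over 12 arrays), and 0.71 after. Ass1 and Srm were at 0.80 before and after, and Nos2 and Sms at 0.80 before and 0.61 after, over 10 arrays. After group means were taken off, Arg1 and Sat1 (0.80) and Arg2 and Nos2 (0.75) also stood above Arg1 and Nos2. Nos2 and Oat ran opposite (r = -0.83, and -0.73 after). After group means were taken off, Ass1 and Sms (-0.81, over 10 arrays) and Arg2 and Odc1 (-0.76) were more opposed. Among 13198 named genes, those most like Arg1 over the 12 arrays were Glipr1 (r = 0.981), Sec23b, Pfkfb3, Socs3 and Myot (0.970). Those most like Nos2 were Trim10 (0.967), Tnf (0.948), Clec4n, Ccl8 and Arl5c (0.935). Arg2 was most like Serping1, Lsp1, Spib, Cd53 and Dpt (0.892 to 0.885), and Ass1 most like Ruvbl2, Eftud2, Drg2, Ddx28 and Faf1 (0.924 to 0.896). Odc1 was most like Atpaf2, Gpat4, Dohh, Wrap53 and Olfr1355 (0.965 to 0.957), and Srm most like Ctu2, Ccdc86, Gfer, Wrap73 and Bud23 (0.961 to 0.934). Sms, over 10 arrays, was most like Insl3, Jak3, Mtrr, Epgn and Saa4 (0.937 to 0.891). Sat1 was most like Cpne8, Zfp11, Bmf, Itgb1bp1 and Uevld (0.936 to 0.912), and Oat most like Saxo2, Chka, Tmem237, Abr and Tbcel (0.933 to 0.871).

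The authors' deposited table of 2506 probes, which gives a value per group with no error, held 3 of the 9 enzymes: Arg1, Nos2 and Arg2. The genes of all probes in that table, tested here or not, came to about 9.6% of the number of genes tested. From its group values, which are log2 levels relative to the probe's median over arrays, the authors' deposited table put Arg1 at 3.02 in KO_AOMDSS and 2.59 in WT_AOMDSS mice, against -2.22 in KO_untreated and -1.67 in WT_untreated mice. The differences in the authors' deposited table were 5.24 with KO and 4.26 with WT marrow for Arg1, 3.16 and 1.95 for Nos2, and 1.02 and 1.10 for Arg2, each within 0.02 of the values from the scanner files.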

How the data were processed

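Per the file headers, the deposited scanner files of 12 Cy3 Agilent arrays (design 014868, Feature Extraction 10.7.3.1) hold linear spot intensities, background-corrected but not scaled between arrays. In addition, the authors deposited log2 group means of 2506 probes in 1 table. Its processing is not stated, and matching it to the scanner values for 2504 probes (r = 0.9963) showed log2 values centred on each probe's median.

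Values were read with the data.table package (version 1.17.8) and fitted with limma 3.58.1 under R 4.3.3. The log2 processed signals of 43379 gene spots were reduced by each array's 75th percentile. Outlier-marked spots were dropped, the remaining spots of each probe were averaged, and probes well above background on all 3 arrays of a group were kept (30210 of 41174). The brightest kept probe stood for a gene. Symbols came from RefSeq accessions, which matched 24375 probes, and the other probes stayed unnamed. limma fitted 4 group means with a variance trend, and p-values were adjusted by Benjamini-Hochberg over 23739 genes in 5 comparisons. With 3 arrays a group, their number limits the precision.

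The enzymes, lists and tests were chosen with earlier results of these data known. All 9 enzymes were described, and 1 gene of the pathway lists is not reported here. From each pathway list every called gene could be named, or otherwise up to 2 with the largest changes, and for each enzyme the 5 most similar genes. Slc7a1, Nos1, Nos3, Retnla, Il4, Il13 and the markers Jchain, Ngp, Camp, Elane, Ccr2 and Msr1 were named outside this rule, after their values were seen. Alternatives were quantile normalization, normexp (offset 50), which used the median in place of the mean spot signal, other filters and probe rules, slide as a fixed or random block or within slides, array weights, the replicate number as a block, and each array left out. The limma step was tested on simulated data. Replicate numbers were checked as pairs by the correlation of deviations from group means over genes. In treated mice, KO against WT marrow, all 3 were above 0.1 (0.42, 0.31 and 0.51), and there the numbers follow the slides, since mice 1 and 2 lay on slide 3 and mouse 3 on slide 2. In the other comparisons at least 1 correlation was below 0.1, so the numbers were not taken as pairs, although some same-numbered mice shared a slide (KO_AOMDSS 3 and KO_untreated 3, KO_untreated 1 and WT_untreated 1). Per the labels' protocols, each array held the mucosa of 1 colon.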

Additional observations from a re-analysis of the deposited data

How the results depend on the processing

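Each of the 45 changes of an enzyme (9 enzymes in 5 comparisons) was computed again under up to 26 alternatives. Of 1097 values, 1072 kept their side of the threshold, 6 calls were lost and 19 were gained. Most of the 1072 belonged to changes that were not called in the report and stayed so. The calls were lost in 5 of 24 alternatives for Nos2 with KO marrow and 1 of 23 for Arg1 with WT marrow. For Arg1 with KO marrow all 24 kept the call. No called change of an enzyme turned its sign, and 68 values that were not called did. Among the pathway genes, with WT marrow, Agmat was 0.36 higher with slide as a fixed block and Oaz3 was 0.32 higher under normexp. The cause was not tested in these cases.

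The count of enzymes called with KO marrow, 2 in the report, was 1 under normexp, 4 with array weights, and 1 to 2 without 1 array. It was 0 where probes had to be well above background on all 12 arrays (Arg1 and Nos2 were then not among the genes tested). With WT marrow, 1 in the report, it was 2 after quantile normalization, 0 with the filter on all arrays, 0 with slide as a fixed block, 4 with array weights, 2 with outlier spots left out of the percentile (an alternative chosen after seeing the data), and 1 to 3 without 1 array. For KO against WT marrow in untreated mice it was 4 with array weights (Nos2, Ass1, Sms and Oat), and for the difference between effects 1 with array weights (Oat). With array weights the called share of all genes was 21.2% with KO marrow and 49.6% with WT marrow. It was 44.7% between marrows in untreated mice and 27.2% for the difference between effects. With WT marrow the share was 19.6% after quantile normalization and 32.2% without WT_AOMDSS 3, the fit with 3 enzymes. Fits with 1 mouse in a group, as within slide 2, assume that it varies like the other groups.

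The count of all genes called with KO marrow (749) was 1724 with slide as a fixed block, 5041 with array weights, 6237 within slide 2, and 251 (without KO_untreated 3) to 1268 (without WT_AOMDSS 3). With WT marrow (3273) it was 855 under normexp, 1879 with the filter on all arrays, 127 with slide as a fixed block, 177 with slide as a random block (correlation 0.503), 11773 with array weights, and 487 (without WT_untreated 1) to 7605 (without WT_AOMDSS 3). For KO against WT marrow it was 4588 in treated mice within slide 2. In untreated mice it was 2 under normexp, 10608 with array weights, and 0 to 1665 without 1 array, the higher count without KO_untreated 1. The difference between effects had 6467 with array weights. Array weights gave WT_AOMDSS 3 a weight of 0.14 and KO_untreated 1 a weight of 0.27.

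With the replicate number as a block the counts were 714 with KO marrow, 2328 with WT marrow and 0 in the other comparisons, and no call of an enzyme changed. Signals near background limit Arg1 and Nos2 in untreated mice, where normexp gave smaller changes (2.36 for Arg1 and 1.43 for Nos2 with KO marrow).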
